A study of Mus musculus with 4 samples.

Results

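The subject of these measurements is a set of 9 genes that govern how much glucose a liver makes, burns and stores, read in mice with and without Brg1 in their hepatocytes. Brg1, the product of *Smarca4*, is the ATPase that drives the SWI/SNF nucleosome remodelling complex. The 9 genes, *G6pc*, *Pck1*, *Fbp1*, *Pcx*, *Ppargc1a*, *Slc2a2*, *Pklr*, *Gys2* and *Pygl*, were taken by name from the 22103 entries of the deposited table, whatever their values, and each had 1 entry. Liver RNA was sequenced from 2 wild-type (WT) littermates and 2 Brg1 LKO mice (labelled KO), in which *Smarca4* f/f was crossed with *Alb*-Cre, so that the *Albumin* promoter limits the deletion to cells of the hepatocyte lineage. All 4 mice, WT included, had taken alcohol, 15 days of it according to the labels, while the methods describe NIAAA feeding, a chronic ethanol liquid diet closed by a single ethanol gavage, in male mice of 8 weeks. No liver from a mouse without alcohol was analysed here, so the values are those of alcohol-fed livers only. The labels give each liver a replicate number and nothing more on its source. All p-values rest on these 4 livers alone, and those of the gene tests also draw on the spread of all genes.

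Levels are given as FPKM, fragments scaled to transcript length and to the total of the library, which can therefore be set side by side between genes. Paired values are given for replicates 1 and 2 in that order, and gene positions are those of GENCODE M21 on GRCm38. The libraries had an estimated 72500000 to 80700000 reads. *Smarca4* itself had 1.79 and 1.95 FPKM in WT against 0.608 and 0.579 FPKM in LKO, 31.8% of the WT level, with both LKO livers below both WT livers. The 7 hepatocyte markers were all present, with summed levels between 18000 and 22020 FPKM, and the kidney and muscle markers *Umod*, *Slc34a1*, *Ckm* and *Myh4* were listed at 0 in every liver. Macrophage markers were not level between the groups. Their summed level was 43.3 and 44.6 FPKM in WT and 55.8 and 123.7 FPKM in LKO. All 10 had a positive log2 difference (46.1% of all genes tested), and 3 passed the threshold used below (0.980% of all genes). Their median difference of 0.80 was 0.25 without LKO replicate 2. All 7 endothelial markers had a negative difference, with a median of −0.29 that was 0.12 without LKO replicate 1. In bulk liver, fewer cells of a type and less RNA per cell cannot be told apart.

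The liver holds blood glucose steady between meals in a pair of ways, by breaking down glycogen and by building glucose from lactate, amino acids and glycerol (gluconeogenesis), and after a meal it takes glucose up, stores it as glycogen and burns it by glycolysis. Glucagon, acting through cAMP, and glucocorticoids favour production, whereas insulin and glucose itself favour storage and glycolysis. Much of this control acts on transcription of the enzymes at irreversible steps. In the gluconeogenic direction pyruvate carboxylase (*Pcx*), phosphoenolpyruvate carboxykinase (*Pck1*), fructose-1,6-bisphosphatase (*Fbp1*) and glucose-6-phosphatase (*G6pc*) act in that order, with *Ppargc1a*, which encodes the coactivator PGC-1α, as a fasting-induced partner of the transcription factors. *Slc2a2* encodes GLUT2, the transporter by which glucose crosses the hepatocyte membrane, *Pklr* the liver pyruvate kinase of the last glycolytic step, *Gys2* the liver glycogen synthase and *Pygl* the liver glycogen phosphorylase. Ethanol oxidation uses up NAD+ and is known to hold back gluconeogenesis from lactate.

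The start regions of the genes carry the hormone and nutrient control just described, and a stretch is printed for 3 of them because each has a textbook response element of a different kind, to cAMP, to insulin and to glucose. The sequences are those of RefSeq on GRCm38.p6, read on the plus strand, which is the coding strand of all 3 genes, and contain no annotated exon. Positions are counted from the RefSeq start, which for *G6pc* and *Pklr* lies downstream of the start of the transcript listed below. *Pck1* is shown at chr2:173152923-173153047, bases −150 to −26 from its start, with the core of the cAMP response element in capitals, written here as ACGTCA, the reverse complement of TGACGT. *G6pc* is shown at chr11:101367466-101367556, bases −250 to −160 from its start, with the insulin response core TGTTTTG in capitals. *Pklr* is shown at chr3:89136423-89136563, bases −200 to −60 from its start, with the paired elements CACGGG and CCCGTG of the carbohydrate response element in capitals, 5 bases apart.
Pck1: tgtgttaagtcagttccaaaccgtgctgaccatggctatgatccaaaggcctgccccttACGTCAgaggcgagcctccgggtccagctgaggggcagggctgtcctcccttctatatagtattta
G6pc: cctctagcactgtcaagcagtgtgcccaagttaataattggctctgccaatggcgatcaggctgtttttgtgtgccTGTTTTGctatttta
Pklr: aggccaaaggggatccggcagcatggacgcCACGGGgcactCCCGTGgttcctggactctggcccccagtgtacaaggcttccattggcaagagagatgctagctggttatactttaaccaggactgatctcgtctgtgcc

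A promoter window of 300 bases, 250 before the start and 50 after it, was present for 8 of the 9 genes in the RefSeq table, in 10 windows, and was not used for *Gys2*. The motifs were picked with these sequences in view and searched on both strands. TGACGT lay at −91 to −86 from the *Pck1* start and at −50 to −45 from a *Ppargc1a* start, on the opposite strand in both, and occurred in 7.51% of 32851 windows of the same length. TGTTTTG lay at −174 to −168 from the *G6pc* start and occurred in 6.28% of windows. The E-box CACGTG was found at −248 to −243 from the *Pcx* start and in 7.15% of windows, and the forkhead core TGTTTAC, present in 3.65% of windows, in no window of the 9 genes. The pair of the *Pklr* element was searched in the exact letters and spacing of *Pklr* itself. It was found in 1 window of 32851, its own, at −170 to −154, which does not measure how rare such elements are. These matches describe letters only and say nothing of what bound there in these livers.

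None of the 9 genes differed between genotypes by the study's threshold, an unadjusted p under 0.05 together with a change above 2-fold, which 121 of 12346 genes tested (0.980%) passed. All 9 were expressed highly enough to be tested (a mean of at least 0.1 FPKM). None of the 9 reached an unadjusted p under 0.05 either, against 247 of all genes (2.00%), and each of the 9 had adjusted p = 1 (limma on log2(FPKM + 0.1), Benjamini-Hochberg adjustment). Of the 12346 genes tested, 0 had an adjusted p under 0.05. That count was 269 without LKO replicate 1, 140 without LKO replicate 2 and 2 over genes averaging 1 FPKM or more. A fit without 1 liver leaves a genotype with a single liver, whose spread is taken to be that of the other genotype. The log2 differences, LKO minus WT, ran from −0.47 for *G6pc* to 0.82 for *Pklr*, 7 positive and 2 negative, with a median of 0.34, where the median of all genes tested was −0.02. Standard errors lay between 0.33 and 0.51 and were drawn partly from the spread of all genes. Differences of this size could not be separated from the estimated spread between livers. The lowest unadjusted p of the set was 0.128, for *Pklr*, and permutation of 2 livers against 2 cannot give a two-sided p below 0.333.

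The 9 genes spanned a wide range of levels. *Fbp1* was the highest, from 261.2 to 490.4 FPKM, and lay above *Pck1* (135.5 to 228.4 FPKM) with no overlap of the 4 livers. *Pygl* (34.4 to 53.8 FPKM) followed below *Pck1*, again with no overlap. *Pygl* overlapped with *Pcx* (25.8 to 37.6 FPKM), although it was the higher of the pair in all 4 livers. *Gys2*, *Pklr*, *Slc2a2* and *G6pc* formed a middle group whose neighbours overlapped, and *Ppargc1a*, from 0.264 to 1.15 FPKM, lay below all of them. Of these, *Pck1* was listed under a transcript with a retained intron (ENSMUST00000136885), and the length behind its FPKM may not be that of its messenger RNA.

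**Figure D1:**
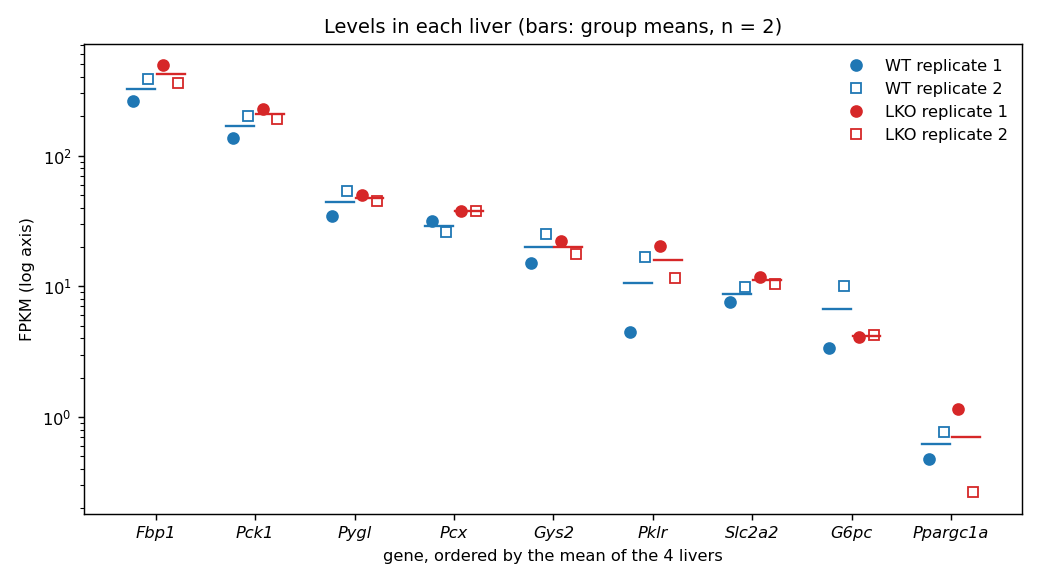
FPKM (log axis) of the 9 genes in each of the 4 livers, WT in blue and LKO in red, with a short bar at each group mean (n = 2). WT replicate 1 is the lowest point for 7 of the 9 genes (and for 31.4% of all genes tested), and both LKO points lie above both WT points for *Pcx* and *Slc2a2* (10.7% of all genes tested).

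Among the enzymes of glucose production, *G6pc* (ENSMUST00000019469, chr11:101367561-101377903, plus strand, 5 exons), which releases free glucose as the final step, had 3.37 and 9.96 FPKM in WT against 4.11 and 4.20 FPKM in LKO. The LKO livers were nearly level with each other and lay between the WT livers, which differed 2.95-fold. Its mean was 6.67 ± 4.66 FPKM (SD, n = 2) in WT and 4.16 ± 0.062 FPKM (SD, n = 2) in LKO, a log2 difference of −0.47 (standard error 0.44, 95% interval −1.42 to 0.47, adjusted p = 1 from limma). Its sign depended on the WT liver used. Without WT replicate 1 the log2 difference was −1.24, past the study's threshold, and without WT replicate 2 it was 0.29.

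*Pck1* (chr2:173153082-173159271, plus strand), whose product turns oxaloacetate into phosphoenolpyruvate, had 135.5 and 200.4 FPKM in WT against 228.4 and 189.8 FPKM in LKO. The groups overlapped, because LKO replicate 2 lay below WT replicate 2, and the log2 difference was 0.34 (standard error 0.33, interval −0.38 to 1.05, adjusted p = 1). It was 0.06 without WT replicate 1, the lowest liver, 0.62 without WT replicate 2 and 0.22 after quantile normalization. *Fbp1* (ENSMUST00000092888, chr13:62864753-62888282, minus strand, 7 exons), the phosphatase that opposes phosphofructokinase, had nearly the same pattern, at 261.2 and 386.3 FPKM in WT and at 490.4 and 356.4 FPKM in LKO. Its log2 difference was 0.40 (interval −0.32 to 1.12, adjusted p = 1), 0.11 without WT replicate 1 and 0.68 without WT replicate 2. After quantile normalization of all 4 livers it was 0.07.

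*Pcx* (ENSMUST00000068004, chr19:4510472-4621752, plus strand, 21 exons), whose mitochondrial product makes oxaloacetate from pyruvate, had 31.6 and 25.8 FPKM in WT against 37.50 and 37.55 FPKM in LKO. It was 1 of 2 genes of the set whose LKO livers both lay above both WT livers, a pattern shown by 10.7% of all genes tested. In no gene of the set did both lie below, against 10.0% of all genes, and either pattern held for 20.7%. The LKO mean was 131% of the WT mean, with a log2 difference of 0.39 (standard error 0.33, interval −0.31 to 1.09, adjusted p = 1), and it stayed positive, between 0.25 and 0.54, when each liver was left out in turn. *Lrfn4*, a gene on the opposite strand, lies within *Pcx*, and whether reads were counted by strand is not stated for these values.

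*Ppargc1a* (ENSMUST00000132734, chr5:51454250-51553922, minus strand, 13 exons) had 0.472 and 0.772 FPKM in WT against 1.15 and 0.264 FPKM in LKO, an estimated 246, 397, 578 and 124 reads. The highest and the lowest of the 4 livers were both LKO livers, 4.35-fold apart, where the WT livers were 1.64-fold apart. The LKO mean was 114% of the WT mean while the log2 difference was −0.07 (interval −1.13 to 1.00, adjusted p = 1), so the sign depended on the scale. Leaving out LKO replicate 2 gave 0.82, and leaving out LKO replicate 1 gave −0.96.

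*Slc2a2* (ENSMUST00000029240, chr3:28697903-28731359, plus strand, 11 exons) had 7.58 and 9.88 FPKM in WT against 11.9 and 10.4 FPKM in LKO. Both LKO livers were above both WT livers, but by a margin smaller than the gap between the WT livers. The log2 difference of this transporter gene was 0.36 (standard error 0.34, interval −0.36 to 1.08, adjusted p = 1), between 0.17 and 0.55 with each liver left out. A noncoding antisense gene overlaps most of *Slc2a2*. Other annotated genes overlap *Ppargc1a*, on either strand, and *Pygl*, on the opposite strand. These overlaps are of whole gene spans, and exons were not compared.

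*Pklr* (ENSMUST00000107482, chr3:89136572-89146784, plus strand, 11 exons), the glycolytic gene of the set, had the widest spread, with 4.49 and 16.6 FPKM in WT against 20.4 and 11.6 FPKM in LKO. WT replicate 1 stood well below the other livers, 3.71-fold under WT replicate 2, while WT replicate 2 lay between the LKO livers. The estimated reads were 1051, 3838, 4608 and 2436. The part of counting error in these gaps was not tested. The log2 difference was 0.82 (standard error 0.51, interval −0.27 to 1.91, adjusted p = 1). Without WT replicate 1 it was −0.11, without WT replicate 2 it was 1.75 and without LKO replicate 2 it was 1.23, the last 2 past the study's threshold.

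The liver glycogen enzymes hardly separated the genotypes. *Gys2* (ENSMUST00000032371, chr6:142422613-142473109, minus strand, 17 exons) had 15.0 and 25.1 FPKM in WT against 22.1 and 17.8 FPKM in LKO, both LKO livers between the WT livers. Its LKO mean was 99.4% of the WT mean, and the log2 difference of 0.03 (interval −0.74 to 0.80, adjusted p = 1) was −0.02 after quantile normalization. *Pygl* (ENSMUST00000161083, chr12:70190819-70231488, minus strand, 20 exons) was at 34.4 and 53.8 FPKM in WT and at 50.2 and 44.8 FPKM in LKO. Again both LKO livers lay between the WT livers, and the log2 difference was 0.14 (interval −0.60 to 0.88, adjusted p = 1), or −0.18 without WT replicate 1.

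**Figure D2:**
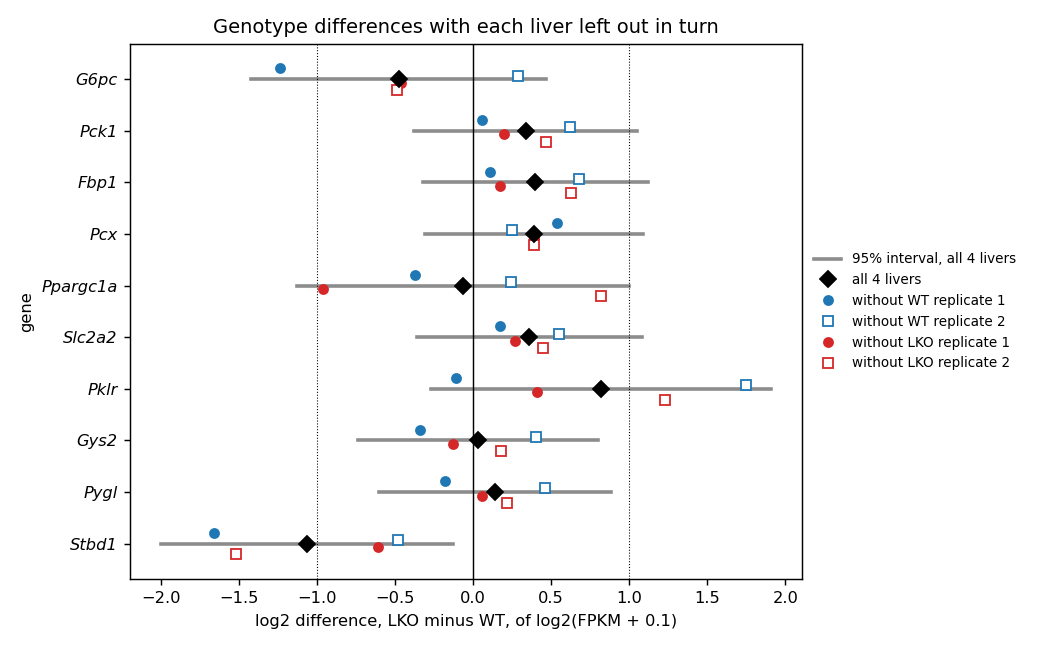
Log2 difference, LKO minus WT, of log2(FPKM + 0.1) for the 9 genes and for *Stbd1*, with the 95% limma interval of all 4 livers (grey) and the value with each liver left out (coloured points). Dotted lines mark 2-fold. The intervals of all 9 genes include 0, that of *Stbd1* ends at −0.13, and the points of *G6pc* and *Pklr* without 1 WT liver lie on opposite sides of 0.

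By the medians below, the set spread more between the WT livers than all genes did, and less between the LKO livers. In 8 of the 9 genes the WT livers differed from each other by more than the group means did on the log2 scale, *Pcx* being the exception. That count was not made over all genes, so it does not set these genes apart. The WT livers differed by a median of 0.61 (log2) over the 9 genes and by 0.31 over all genes tested, whereas the LKO livers differed by 0.27 and 0.40. *Pklr* and *G6pc* differed more between the WT livers than 99.6% and 99.2% of all genes tested, and *Ppargc1a* more between the LKO livers than 98.2%. *Pcx*, in contrast, was closer between the LKO livers than all but 0.219% of genes. WT replicate 1 was the lowest of the 4 livers for 7 of the 9 genes, *Pcx* and *Ppargc1a* being the others, and for 31.4% of all genes tested. Centred on the mean of the 4 livers, the median of the 9 genes was −0.39 and 0.25 in WT replicates 1 and 2 and 0.27 and −0.01 in LKO replicates 1 and 2, and that of all genes was −0.13, 0.15, −0.16 and 0.13. In WT replicate 1 the median of the set lay below that of all genes, a difference that was not tested, and the median log2 difference of 0.34 became −0.11 without that liver.

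The patterns of the widest-ranging pair were compared with those of 7733 genes averaging 1 FPKM or more, by the root mean square distance of centred log2 values over the 4 livers. Nearest to *Pklr* were *Hcn3* (distance 0.126), which encodes an ion channel, *Gdf15* (0.230), a stress-induced secreted factor, and *Serpina6* (0.272), corticosteroid-binding globulin. *Hcn3* was at 1.79, 8.27, 8.36 and 4.60 FPKM in WT replicates 1 and 2 and LKO replicates 1 and 2. It is the neighbour of *Pklr* on the opposite strand, and their annotations share 711 bases, in which reads of either gene cannot be told apart if strand was not used. Nearest to *Ppargc1a* were *Alas1* (0.042), the first enzyme of haem synthesis, *Slc22a21* (0.078), a carnitine transporter gene, and *Rnf125* (0.085), a ubiquitin ligase gene. *Alas1* was at 122.4, 179.1, 267.0 and 72.7 FPKM in the same order of livers, highest and lowest in the LKO livers as *Ppargc1a* was. With 4 livers, such distances describe these samples only.

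Several hormone-responsive genes also differed widely between the LKO livers. Of the genes given here and in the next paragraph, *Igfbp1*, *Got1* and *Fgf21* were taken by the naming rule. *Lpin1*, *Tat*, *Sds*, *Got2*, *Gpt*, *Gpt2*, *Ciart*, *Nr1d1*, *Nr0b2*, *Arntl*, *Per2*, *Dbp*, *Angptl4*, *Cpt1a* and *Tsc22d3* were chosen after their values were seen. *Igfbp1*, an insulin-repressed binding protein of IGF, had 129.6 and 138.1 FPKM in WT, 268.5 FPKM in LKO replicate 1 and 60.2 FPKM in LKO replicate 2. *Lpin1*, a fasting-induced phosphatidate phosphatase and partner of PGC-1α, was level between the WT livers (21.0 and 21.6 FPKM) and 14.0-fold apart between the LKO livers (67.3 and 4.81 FPKM). The WT livers lay between the LKO livers for both genes, as they did for *Ppargc1a*. The aminotransferase genes *Got1* (71.0 and 76.6 FPKM in WT, 201.8 and 61.6 FPKM in LKO) and *Tat* (158.2 and 157.8 FPKM in WT, 412.4 and 126.1 FPKM in LKO) showed the same order. *Sds*, serine dehydratase, was at 53.0 and 26.8 FPKM in WT and at 100.5 and 22.3 FPKM in LKO. These 3 genes, whose enzymes feed amino acid carbon into gluconeogenesis, were highest in LKO replicate 1 and lowest in LKO replicate 2. Other aminotransferase genes did not follow that order. *Got2* was highest in LKO replicate 2 (98.6 FPKM) and lowest in WT replicate 1 (79.1 FPKM), *Gpt2* was highest in WT replicate 1 (27.4 FPKM) and lowest in WT replicate 2 (17.3 FPKM), and *Gpt* was lowest in WT replicate 1 (25.9 FPKM).

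The clock gene *Ciart* had the same order, at 1.59 and 1.63 FPKM in WT and at 5.20 and 0.469 FPKM in LKO. *Nr1d1*, the clock repressor REV-ERBα, and *Nr0b2*, the bile acid-induced repressor SHP, ran the other way. *Nr1d1* was at 0.475 FPKM in LKO replicate 1 and 1.65 FPKM in LKO replicate 2, and *Nr0b2* at 1.27 and 11.1 FPKM, with the WT livers between them for both. *Arntl*, the core clock activator, stayed between 1.42 and 1.76 FPKM in the 4 livers. Some other clock and fasting genes were nearly level between LKO replicates 1 and 2, among them *Per2* (1.52 and 1.53 FPKM) and *Dbp* (0.658 and 0.662 FPKM). So were *Angptl4* (29.1 and 29.7 FPKM) and *Cpt1a* (25.0 and 26.1 FPKM). *Fgf21* (4.80 and 18.0 FPKM) and *Tsc22d3* (10.1 and 19.2 FPKM) were higher in LKO replicate 2. None of these genes passed the test between genotypes. The hour of collection and the last meal of each mouse are not given in the sources used here, and their part in these values was not tested.

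**Figure D3:**
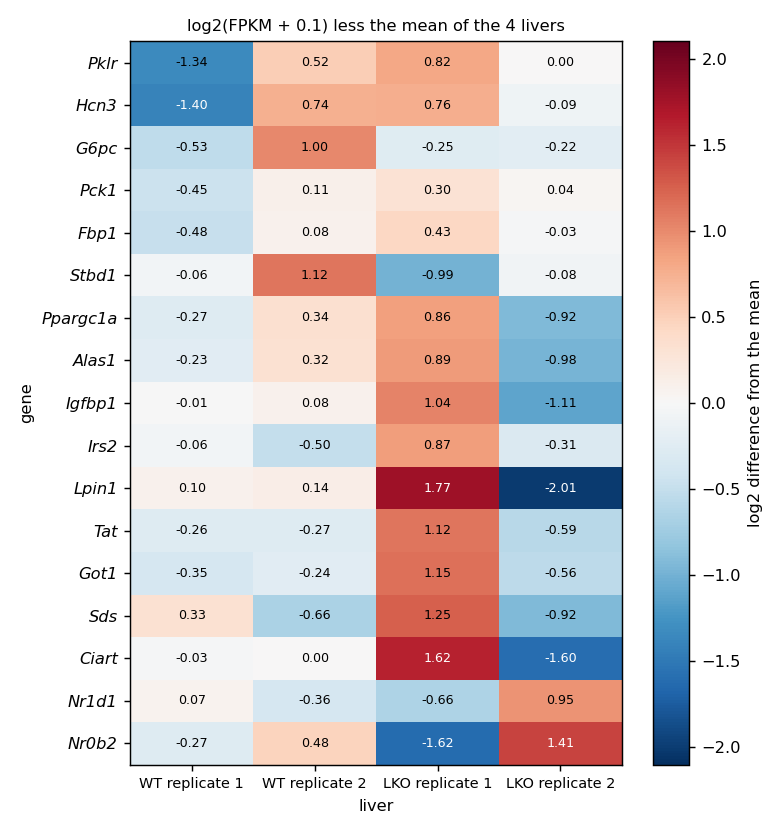
Log2(FPKM + 0.1) of selected genes in each liver less the mean of the 4 livers (red above, blue below, value in each cell). *Pklr* and *Hcn3* are lowest in WT replicate 1, *Stbd1* is highest in WT replicate 2, and the genes from *Ppargc1a* to *Ciart* are highest in LKO replicate 1, with *Nr1d1* and *Nr0b2* lowest there.

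The rest of the pathway was read from lists of 184 genes, not counting the clock and zonation lists, and 171 of them could be tested. Of these, 98 had a positive and 73 a negative log2 difference, with a median of 0.06, so 57.3% were positive against 46.1% of all genes. Both LKO livers were above both WT livers in 23 (13.5%, against 10.7% of all genes) and below them in 5 (2.92%, against 10.0%). Past the study's threshold were 2 genes, both lower in the LKO livers and *Stbd1* among them, or 1.17% of the genes tested on these lists against 0.980% of all genes.

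*Stbd1*, which encodes a glycogen-binding protein that brings glycogen to lysosomes, had 3.08 and 7.10 FPKM in WT against 1.57 and 3.03 FPKM in LKO. The groups came close to overlap, at 3.08 FPKM in WT replicate 1 and 3.03 FPKM in LKO replicate 2. *Stbd1* fell by 1.07 on the log2 scale (standard error 0.44, adjusted p = 1 from limma). Without WT replicate 2 it was −0.48 and without LKO replicate 1 it was −0.61, neither past the threshold. Without WT replicate 1 it was −1.66 and without LKO replicate 2 it was −1.52, both past it, the latter with an adjusted p of 0.0246 from limma.

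By pathway, the 23 tested further genes of gluconeogenesis had 14 positive and 9 negative differences with a median of 0.04, from −0.75 for *Ldhb*, a lactate dehydrogenase subunit, to 0.60 for *Got1*. *Ldhb* ranged from −1.32 without WT replicate 1, past the threshold, to −0.19 without WT replicate 2. *Slc37a4*, the glucose-6-phosphate carrier that works with *G6pc*, was at 22.7 and 28.8 FPKM in WT and at 25.4 and 24.4 FPKM in LKO, and *Pck2*, the mitochondrial isoform of the carboxykinase, stayed between 0.361 and 0.582 FPKM. The groups overlapped for both. The 26 tested further glycolytic genes had 17 positive and 9 negative differences and a median of 0.14. Their highest was *Hk3*, a hexokinase of myeloid cells, at 0.66, whose highest level, 1.49 FPKM, was in LKO replicate 2, the liver with the highest macrophage markers. The part of these cells in its level was not tested. Its difference was 0.18 without LKO replicate 2 and 1.14, past the threshold, without LKO replicate 1. *Pfkl*, liver phosphofructokinase, was at 3.31 and 4.39 FPKM in WT and at 2.52 and 4.89 FPKM in LKO, with the WT livers between the LKO livers.

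*Pkm*, the pyruvate kinase of other tissues, had 1.32 and 1.68 FPKM in WT against 1.87 and 1.95 FPKM in LKO, a log2 difference of 0.34 that did not pass. The 12 genes of the pyruvate dehydrogenase complex and its kinases and phosphatases split evenly, 6 positive and 6 negative, with a median of 0.11. They ran from −0.12 for *Pdhx*, which encodes a structural subunit, to 0.59 for the phosphatase gene *Pdp2*. *Pdk4*, the kinase that shuts pyruvate dehydrogenase in fasting, was at 0.943 and 2.11 FPKM in WT and at 3.04 and 1.55 FPKM in LKO, so its groups overlapped. Its difference of 0.58 was 0.04 without WT replicate 1 and 1.05, past the threshold, without LKO replicate 2.

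The 23 tested further glycogen genes had 12 positive and 11 negative differences with a median of 0.01. *Gbe1*, the branching enzyme, had the highest at 0.35 (2.67 to 4.02 FPKM over the livers). The isoforms of other tissues were low throughout, with the synthase *Gys1* at 0.264 to 0.393 FPKM and the phosphorylases *Pygb* and *Pygm* at 0.236 to 0.546 and 0.0688 to 0.118 FPKM. All 8 tested sugar transporters other than *Slc2a2* had a positive difference (46.1% of all genes), from 0.06 for *Slc2a12* to 0.60 for *Slc2a6*. Their median of 0.20 was −0.10 without WT replicate 1. In none of the 8 did the groups stand apart (20.7% of all genes did), and WT replicate 1 was the lowest liver in 7 (31.4% of all genes). The 9 genes of fructose and galactose entry had 6 positive and 3 negative differences with a median of 0.15, the lowest at −0.21 for *Galt*, an enzyme of galactose conversion. The 8 genes of the pentose phosphate pathway ran from −0.22 for *Rpia* to 0.46 for *G6pdx*, its first enzyme, with a median of 0.01.

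**Figure D4:**
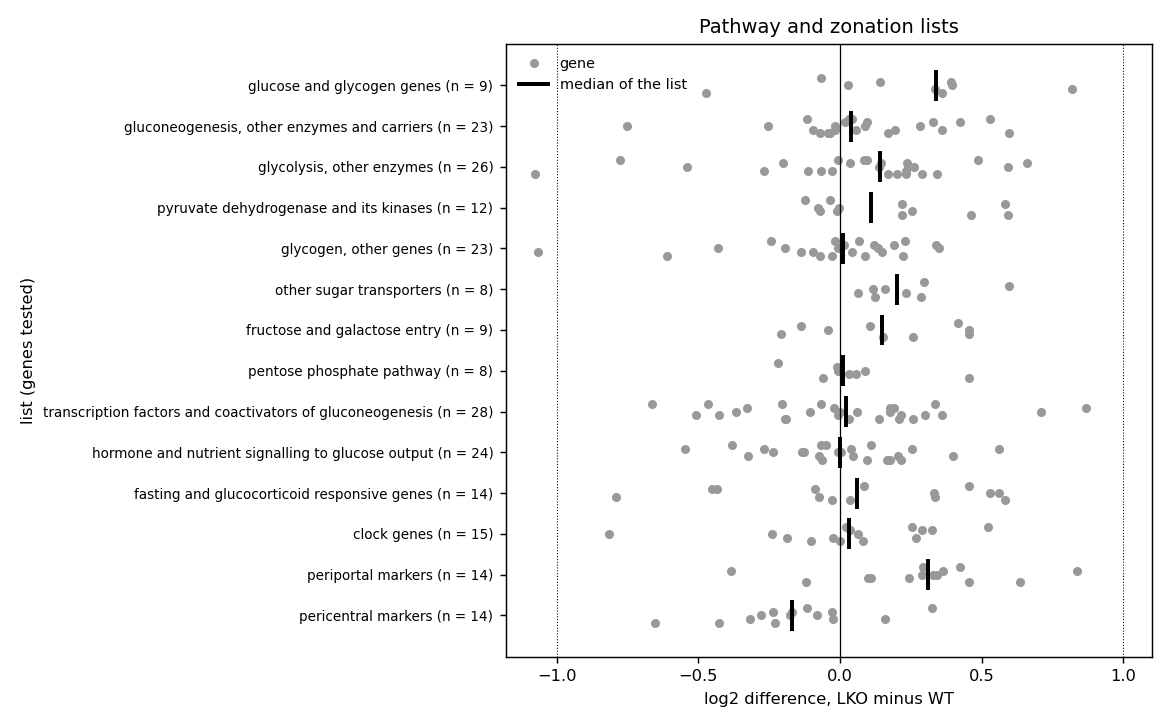
Log2 differences, LKO minus WT, of the tested genes of each list (grey points) with the median of the list (black bar) and dotted lines at 2-fold. The medians lie between −0.17 (pericentral markers) and 0.34 (the 9 genes), and 2 genes lie beyond a dotted line, both on the negative side.

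The upstream regulators gave no common direction. Of 28 tested transcription factors and coactivators of gluconeogenesis, 14 were positive and 14 negative. *Onecut1*, a hepatocyte transcription factor, was at 0.927 and 0.756 FPKM in WT and at 1.47 and 1.77 FPKM in LKO, with a log2 difference of 0.87 below the 2-fold limit (adjusted p = 1 from limma). It was the only gene of this list with an unadjusted p under 0.05. The lowest, *Ppargc1b*, a relative of *Ppargc1a*, had −0.66, which was 0.03 without LKO replicate 2, the liver at 0.0528 FPKM against 0.270 to 0.315 FPKM in the others. *Foxo1*, the insulin-restrained activator of *G6pc*, was at 1.65 and 2.14 FPKM in WT and at 2.99 and 1.44 FPKM in LKO, and *Hnf4a* stayed between 48.9 and 62.0 FPKM.

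The 24 genes of hormone and nutrient signalling were also split 12 to 12. *Mlxipl*, the glucose-sensing factor ChREBP that acts on *Pklr*, was at 6.83 and 15.4 FPKM in WT and at 4.96 and 9.86 FPKM in LKO, the lowest difference of the list at −0.55. Its order over the livers was not that of *Pklr*, which was highest in LKO replicate 1 where *Mlxipl* was lowest. The action of ChREBP on *Pklr* in these livers was not tested. *Txnip*, a further ChREBP target, stayed between 4.88 and 6.36 FPKM. The receptor genes were close between groups, *Insr* at 5.13 to 5.73 FPKM over the livers and *Gcgr*, the glucagon receptor, at 9.90 and 16.7 FPKM in WT and 9.62 and 15.7 FPKM in LKO. *Irs2*, an insulin receptor substrate, had the highest difference at 0.56 and was highest in LKO replicate 1 (4.12 FPKM against 1.53 to 2.12 FPKM in the others). The 14 tested fasting and glucocorticoid-responsive genes had a median of 0.06, from −0.79 for *Fgf21* to 0.58 for *Pdk4*. The 15 clock genes had a median of 0.03, from −0.82 for *Npas2* (adjusted p = 1 from limma, the only unadjusted p of the list under 0.05) to 0.52 for *Nr1d2*. None of these genes passed the threshold with all 4 livers.

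Gluconeogenesis is placed mainly in periportal and glycolysis in pericentral hepatocytes, and marker lists of both zones were read beside the set. Of 14 periportal markers 12 were positive (85.7%, against 46.1% of all genes), with a median of 0.31, and in 7 (50%, against 10.7%) both LKO livers lay above both WT livers. The highest was *Apoa4*, at 128.4 and 121.1 FPKM in WT and at 274.7 and 180.7 FPKM in LKO (0.84, adjusted p = 1 from limma), and the lowest *Hsd17b13* (−0.38). Of 14 pericentral markers 2 were positive (14.3%) and 12 negative, with a median of −0.17, from −0.65 for *Glul*, glutamine synthetase, to 0.33 for *Oat*. Leaving out WT replicate 2 gave a pericentral median of 0.13 and leaving out WT replicate 1 gave −0.52, whereas the periportal median stayed between 0.19 and 0.48. *Glul* was at 91.7 and 134.5 FPKM in WT and at 62.6 and 79.4 FPKM in LKO, with both LKO livers below both WT livers. The part of zonation in the levels of the 9 genes was not tested.

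Ratios of enzymes that oppose each other in 1 liver do not depend on scaling between libraries, and they were compared by an exact two-sided permutation test, in which the smallest possible p was 0.333. *Fbp1* to *Pfkl* was 78.9 and 88.1 in WT and 195 and 73.0 in LKO, with a log2 difference of 0.51 (exact p = 1) that was −0.18 without LKO replicate 1. *Pck1* to *Pklr* was 30.2 and 12.0 in WT and 11.2 and 16.4 in LKO, with a log2 difference of −0.48 (exact p = 0.667) that was 0.17 without WT replicate 1. *Gys2* to *Pygl* was the steadiest, at 0.437 and 0.466 in WT and 0.440 and 0.397 in LKO (−0.11, exact p = 0.667). The ratio of synthase to phosphorylase was nearly the same in livers whose levels of either differed by up to 1.67-fold. That widest gap was between the WT livers, whose median-ratio scaling factors were 0.911 and 1.13. A shift of a whole library leaves such a ratio unchanged. Steadiness was not compared with gene pairs beyond the 4. After Benjamini-Hochberg adjustment over the 4 pairs compared, the lowest exact p was 0.889.

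**Figure D5:**
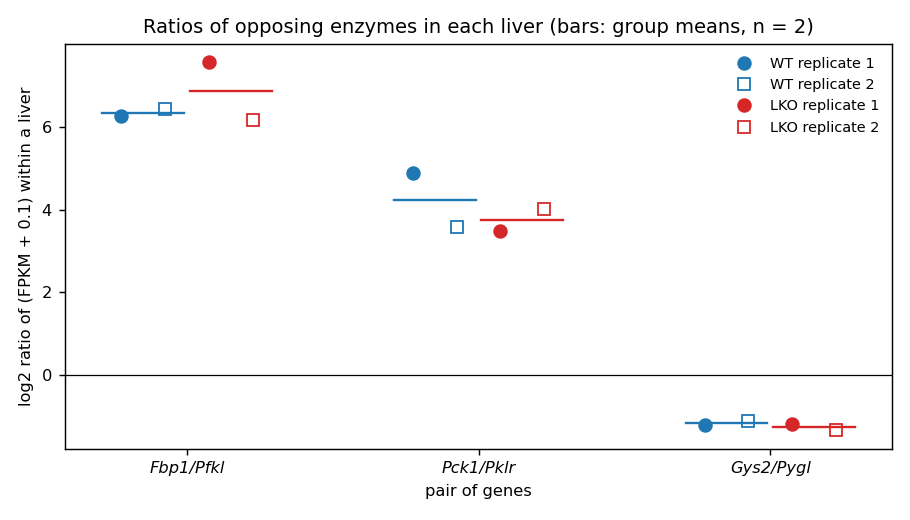
Log2 ratio of opposing enzymes within each liver, WT in blue and LKO in red, with bars at the group means (n = 2). *Fbp1*/*Pfkl* and *Pck1*/*Pklr* each have a single liver apart, and *Gys2*/*Pygl* is nearly level.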

How the data were processed

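For each gene the deposited table gives an FPKM value in every liver. Per the methods, the authors used Trimmomatic for trimming, HISAT2 for mapping to GRCm38 and Cufflinks for FPKM, while the submitters' processing notes name HISAT2 2.0.4 and StringTie 2.1.4. The methods describe stranded TruSeq libraries on an Illumina HiSeq platform, and the labels a BGIseq protocol. Counting by strand and scaling between libraries are not given in the sources used here. Because FPKM is relative to the library total, abundant genes that move can shift the rest. The authors ran DESeq on read counts, which were not used here, and a test suited to FPKM took its place.

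Symbols turned into dates (27) were restored, and 3 listed genes stood under older symbols (*Adgre1*, *Gk* and *Tkfc*). Of entries sharing a symbol the highest was used. Transcript lengths from GENCODE M21, found for 98.3% of identifiers, gave the FPKM of 1 read and from it the library totals, 80700000 and 79500000 reads (WT) and 77800000 and 72500000 reads (LKO). At these totals 88.9% to 89.8% of values up to 20 reads lay within 0.1 of a whole read. Reads of single genes are therefore estimates.

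Genes averaging 0.1 FPKM or more (12346 of 22103 entries, 5250 of which were at 0 in every liver) were tested as log2(FPKM + 0.1) by limma 3.58.1 (R 4.3.3), with lmFit and a trended eBayes, genotype being the only term. Fold changes are on this scale, which understates those of low genes. The study's threshold was kept (unadjusted p under 0.05 and a log2 difference above 1 or below −1), and p-values were adjusted by Benjamini-Hochberg over all genes tested. The procedure was tested on simulated data. Ratios within a liver were compared by exact two-sided permutation in Python 3.11.15 with SciPy 1.17.1.

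The 9 genes, the pathway and marker lists, the tests and the alternatives were chosen with earlier results of these data known. Besides the 9 genes, the text names each listed gene with an unadjusted p under 0.05, the highest and lowest of each list, 20 key genes of the pathway and the 3 nearest patterns of each of the widest-ranging pair. Some genes that this rule takes, and 1 enzyme ratio, are not reported here. Promoter sequences are from RefSeq (GRCm38.p6) and gene positions from GENCODE M21 (GRCm38). As alternatives, each liver was left out in turn, the pseudocount was 1 or 0.01 FPKM, the filter was dropped or raised to a mean of 1 FPKM, libraries were rescaled by median ratio or by quantiles, eBayes was run untrended, and a replicate block was added. When a liver is left out, the single liver of that genotype is assumed to vary like the pair of the other.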

Additional observations from a re-analysis of the deposited data

How the results depend on the processing

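No gene of the set passed the study's threshold under any alternative that kept all 4 livers. With each liver left out in turn, 0 to 1 of the 9 passed (*G6pc* without WT replicate 1, *Pklr* without WT replicate 2 or LKO replicate 2). The number of genes past the threshold over the whole table was 121. A pseudocount of 1 FPKM gave 18, dropping the filter gave 80, a stricter filter (mean of 1 FPKM, fewer genes tested) gave 68, and leaving out a liver gave 78 to 552. On the pathway lists the count of 2 was 1 with a pseudocount of 1 FPKM and 1 with no filter, *Stbd1* being lost in both, and 0 to 17 with a liver left out. The median log2 difference of the 9 genes, 0.34, ranged from −0.11 to 0.46 with a liver left out and was 0.12 after quantile normalization. Of 363 values of named genes with all livers kept, 355 stayed on the same side of 0 and of the threshold. Besides *Stbd1*, the deleted gene *Smarca4* itself fell short of the threshold, at −0.85 with a pseudocount of 1 FPKM. Signs changed for *Ppargc1a* (0.03 with a pseudocount of 1 FPKM), *Gys2* (−0.02 after quantile normalization) and *Pygb* (0.01 with a pseudocount of 1 FPKM, 0.01 after median-ratio rescaling and 0.03 after quantile normalization), all from values near 0. The cause of these changes was not tested.

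Leaving out 1 liver changed the sign of 5 of the 9 genes. Their ranges were −1.24 to 0.29 for *G6pc*, −0.96 to 0.82 for *Ppargc1a*, −0.11 to 1.75 for *Pklr*, −0.34 to 0.40 for *Gys2* and −0.18 to 0.46 for *Pygl*. Sign changes were not counted over all genes, so the count does not set the 9 genes apart. Among other enzymes and carriers the ranges across 0 were −0.21 to 0.13 (*Slc37a4*), −0.58 to 0.35 (*Pfkl*), −0.29 to 0.15 (*Gys1*), −0.48 to 0.46 (*Pygb*), −0.06 to 0.30 (*Pygm*), −0.26 to 1.45 (*Got1*), −0.39 to 0.14 (*Pdhx*), −0.17 to 0.30 (*Slc2a12*), −0.45 to 0.03 (*Galt*) and −0.19 to 0.84 (*Oat*). Among regulators they were −0.37 to 0.64 (*Foxo1*), −0.44 to 0.31 (*Gcgr*), −0.01 to 0.10 (*Insr*), −1.13 to 0.04 (*Mlxipl*), −1.15 to 1.00 (*Igfbp1*), −1.36 to 0.03 (*Ppargc1b*), −0.03 to 1.15 (*Irs2*), −1.73 to 0.15 (*Fgf21*) and −0.20 to 1.24 (*Nr1d2*). Named genes outside the set that passed the threshold with 1 liver left out were *Mlxipl* (−1.13), *Ldhb* (−1.32) and *Fgf21* (−1.41) without WT replicate 1, *Igfbp1* (−1.15), *Hk3* (1.14), *Ppargc1b* (−1.36) and *Nr1d2* (1.24) without LKO replicate 1, and *Mlxipl* (−1.04), *Pdk4* (1.05), *Got1* (1.45), *Irs2* (1.15), *Fgf21* (−1.73) and *Apoa4* (1.14) without LKO replicate 2, besides *Stbd1*. The log2 ratio difference ran from −0.18 to 1.21 for *Fbp1*/*Pfkl* and from −1.13 to 0.17 for *Pck1*/*Pklr*.

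Replicate numbers 1 and 2 occur in both groups, but no source says that a number marks a shared litter or day. The deviations of same-numbered livers correlated at 0.0307 across genes. Median-ratio scaling factors, however, were lower in replicate 1 (0.911 in WT, 0.885 in LKO) than in replicate 2 (1.13 in WT, 1.11 in LKO). The main fit was not rescaled, and the source of this shift was not tested. With a replicate block 108 genes passed the threshold in place of 121, the count on the pathway lists stayed at 2, and 0 of the 9 genes passed. The standard errors of the 9 genes, 0.33 to 0.51 on the log2 scale, rest on 2 livers per genotype. Through eBayes they also rest on the spread of all genes tested. The lowest estimated number of reads behind a value of the set was 124, for *Ppargc1a* in LKO replicate 2.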
